A study of Rattus norvegicus with 13 samples.

Results

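The genes described here encode the proteins of the extracellular matrix and the integrins, the receptors that tie cells to it, in glomeruli of the rat kidney measured on 13 one-colour Affymetrix Rat 230A arrays. Members were the probe sets, each a group of short probes for 1 transcript, whose single gene symbol in the platform annotation was a numbered collagen chain, began with Lama, Lamb or Lamc, began with Itga or Itgb (Itga8 and Itgb5 left out), or was Nid1, Nid2, Agrn, Hspg2, Fn1, Fbn1 or Sparc. This gave 79 of 15923 probe sets, for 58 genes. There were 23 basement membrane probe sets of 18 genes, 23 of 14 genes of interstitial matrix, 14 of 12 genes of other collagens, 11 of 8 integrin alpha chains and 4 of 3 integrin beta chains. The remaining 4 probe sets were those of Itgb1bp1, Itgb1bp2 and Itgb3bp, which are named for binding integrin beta chains and are not integrin subunits. After the 30% of probe sets with the lowest mean log2 signal were left out, 60 member probe sets of 48 genes were tested, and the other 19 member probe sets are given only as levels. Of the 60, 5 had a sieved mean under the filter's limit and passed only through the microdissected groups (Itgae, Itgb7, Col10a1, Col11a2 and 1 of Itgb3bp), and Col1a2 (1370155_at) and Itgb1 (1387346_at) had a microdissected mean under it.

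All samples came from untreated Lewis-Hsd rats aged 18 weeks on a regular diet. In the sieved group (titled iron, n = 4), 1 kidney was perfused with iron oxide, a magnet and sieves then gave glomeruli of a stated purity over 99%, and the RNA was not amplified. In the groups titled LCM 800 (n = 5) and LCM 20 (n = 4), here LCM800 and LCM20, glomeruli of the opposite kidney were cut by laser from frozen sections of 10 µm, and 2 amplification rounds followed. The extraction text names about 800 glomerular cross-sections for both, and nothing says what the 20 in the title counts. Isolation, perfusion and amplification changed together between sieved and microdissected samples and cannot be told apart. The titles call the replicates biological, but no label ties a replicate number to a rat. The same texts mention anti-Thy1.1 rats and embryos, which go against the other fields.

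Values were MAS5 signals in intensity units, with a median per array of 236 to 321. Array values below are given in replicate order. Changes are differences of mean log2(signal + 65.3) ± SE of the fit, where 65.3 is the pseudocount, so changes of dim genes come out smaller than the ratio of their signals. A gene rose or fell where limma's two-sided p, adjusted by Benjamini-Hochberg over 11106 probe sets, was under 0.05. A probe set's level is compared only with itself across arrays. LCM800 replicates 1, 2 and 3 correlated with each other at r = 0.893 to 0.93 over the tested probe sets and replicates 4 and 5 at 0.937, against 0.718 to 0.812 between these arrays. Replicates 4 and 5 correlated with the LCM20 arrays at 0.855 to 0.907, more closely than with the other LCM800 arrays, and replicates 1, 2 and 3 with LCM20 at 0.651 to 0.86. The difference between the 3′ and 5′ control probe sets of beta-actin, a sign of RNA quality and amplification, split the same way, with log2 values of 2.80, 3.54 and 4.01 on LCM800 replicates 1, 2 and 3, 1.78 and 1.71 on replicates 4 and 5 and 1.33 to 2.29 on the LCM20 arrays. The same differences of GAPDH and hexokinase did not split this way. On LCM800 replicates 1 to 5, GAPDH gave 1.24, 1.11, 1.08, 2.02 and 0.68, and hexokinase 0.28, -0.23, 0.45, 0.6 and 0.06. The part of these control differences in values that differ between these LCM800 arrays was not tested. Sieved replicate 3 correlated with the other sieved arrays at 0.873 to 0.897, against 0.964 to 0.984 among the other 3. Marker genes of podocytes, of glomerular endothelium and of mesangial cells were all measured above the pseudocount in every group mean. The summed signal of 12 proximal tubule markers was 69532 to 127580 on the sieved arrays, 26857 to 54583 on the LCM800 arrays and 22235 to 51330 on the LCM20 arrays, and 11 of the 12 genes fell in each microdissected group. The other, Pck1, rose in LCM800 by 1.07 ± 0.29 (adjusted p = 0.00559), to a mean signal of 23700 from 11000, and was not called in LCM20 (0.55 ± 0.30, adjusted p = 0.143).

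The glomerular basement membrane lies between the capillary endothelium and the podocytes and is part of the filter that keeps proteins in the blood. Its scaffold consists of a network of type IV collagen and a network of laminin, joined by nidogen and by the heparan sulfate proteoglycans agrin and perlecan. Laminins are trimers of an alpha, a beta and a gamma chain, and the mature glomerular laminin carries the alpha 5, beta 2 and gamma 1 chains, which Lama5, Lamb2 and Lamc1 encode. The integrin of alpha 3 and beta 1 chains anchors podocytes to it. Fibrillar collagens of types I, III and V are the main fibres of interstitial connective tissue.

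The genes Col4a1 and Col4a2, whose products form the collagen IV trimer found in nearly all basement membranes, lie head to head and are transcribed away from each other from a short shared stretch. It is shown because the 3 probe sets of this gene pair are described together below. Its 76 bases in RefSeq (assembly GRCr8), chr16:84885521-84885596 on the plus strand, are printed 5′ to 3′ with the match to GGGCGG, read on the other strand, in capitals.
Col4a1 to Col4a2: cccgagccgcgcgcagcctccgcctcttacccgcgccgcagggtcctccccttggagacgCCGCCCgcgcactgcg
GGGCGG, the core of a GC box, was searched on both strands together with CCAAT and TATAA, and the other 2 motifs had no match in this window. Of the windows of 76 bases just upstream of the 33469 starts in the promoter table, 18.1% hold GGGCGG, 13% CCAAT and 8.64% TATAA. The table covers 45 of the 58 member genes.

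The first comparison, LCM800 against sieved, addresses how far microdissected and amplified glomeruli give the matrix profile of glomeruli isolated in bulk. Of the 60 tested member probe sets, 17 rose, 11 fell and 32 did not pass, that is 46.7% called. The background is high, since 51.9% of all tested probe sets were called, 31.8% higher and 20.1% lower. The median member change was 0.20, and that of all probe sets 0.22. The sample ranges of the groups did not overlap for 12 members higher in LCM800 (background 26.7%) and 9 lower (background 16.1%), where 42.8% of all probe sets were apart either way.

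LCM20 against sieved asks the same of the other microdissected group, and it shares the 4 sieved arrays with the first comparison. Of the 60 member probe sets, 13 rose, 8 fell and 39 did not pass. That is 35.0%, against a background of 45.3% (26.2% higher and 19.2% lower). The median member change was 0.04, with 0.17 over all probe sets. Sample ranges did not overlap for 10 members higher in LCM20 (background 25.6%) and 7 lower (18.2%), or 43.8% of all probe sets either way. Lamb2, Col5a2 and Itgb7 had the largest rises past the test and Itgb1 (1 of its probe sets), Sparc (1 of its probe sets) and Itga1 the largest falls in both comparisons. Of these, Itgb7 passed the filter only through the microdissected groups, and the Itgb1 probe set had an LCM800 mean under the filter's limit. The number of members that rose in LCM20 depended on single arrays: it was 7 without sieved replicate 4 and 8 without sieved replicate 2, LCM20 replicate 1 or LCM20 replicate 3. The number that fell in LCM800 was 7 without sieved replicate 1. These counts stand without the share of all probe sets called in the same fits. They do not show whether members lost calls more than the rest.

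**Figure D1:**
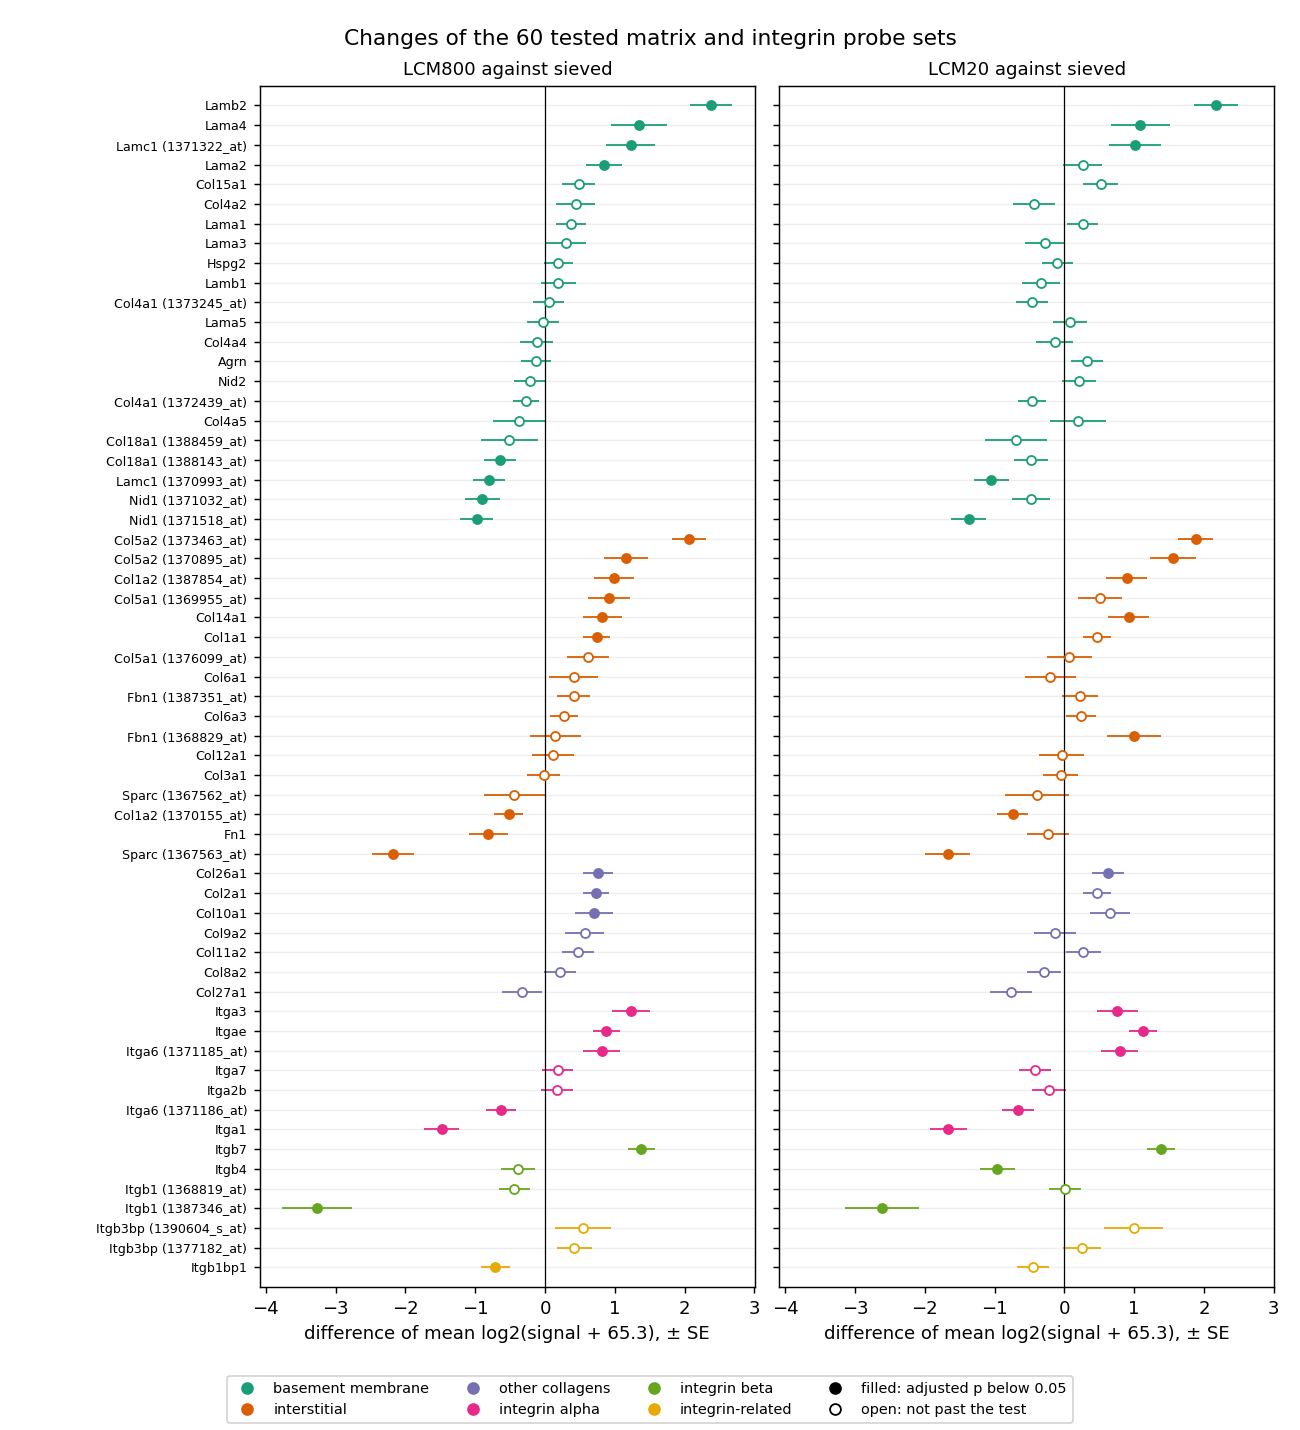
Change of each of the 60 tested probe sets in LCM800 (left) and LCM20 (right) against sieved glomeruli, as the difference of mean log2(signal + 65.3) on the x axis, with bars of ± 1 SE and colours for the classes; filled points have an adjusted p under 0.05. Basement membrane probe sets (top) spread on both sides of 0 with Lamb2 far to the right, and 1 probe set of Itgb1 lies farthest to the left.

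Among basement membrane genes, all rises past the test were in laminin chains, the falls were in Nid1, Lamc1 and, in LCM800, Col18a1, and no type IV collagen passed the test. Of 22 probe sets, 4 rose and 4 fell in LCM800 (median 0.01), and 3 rose and 2 fell in LCM20 (median -0.12), so that 36.4% and 22.7% were called beside 51.9% and 45.3% of all probe sets. With equal array medians the LCM800 median was -0.09 (0.12 over all probe sets). After quantile normalization 2 rose and 3 fell in LCM20, where 2898 of all 11106 probe sets rose and 2129 fell. Type IV collagen had 5 tested probe sets, with medians of -0.12 and -0.44 and none called in either comparison. The brighter probe set of Col4a1 (1373245_at) read 1267, 1126, 1812 and 1299 on the sieved arrays, 1605, 1634, 1581, 1158 and 1129 on the LCM800 arrays and 1023, 830.3, 808 and 1281 on the LCM20 arrays. All groups overlapped, with changes of 0.05 ± 0.22 in LCM800 (adjusted p = 0.865) and -0.46 ± 0.23 in LCM20 (adjusted p = 0.111). The dimmer Col4a1 probe set (1372439_at) read 802, 692, 1056 and 805 on the sieved arrays, 617, 844, 709.5, 579.8 and 653 on the LCM800 arrays and 547, 719, 499 and 597 on the LCM20 arrays. Its changes were -0.27 ± 0.19 (adjusted p = 0.232) and -0.46 ± 0.20 (adjusted p = 0.0684). Col4a2, read from the other side of the stretch printed above, gave 1084, 1056, 783 and 837 on the sieved arrays, 2133, 1559, 1234, 880.4 and 948 on the LCM800 arrays and 652, 376, 794 and 999 on the LCM20 arrays. LCM800 replicates 1, 2 and 3 were above all sieved arrays and replicates 4 and 5 were not, and the changes were 0.44 ± 0.28 in LCM800 (adjusted p = 0.21) and -0.44 ± 0.30 in LCM20 (adjusted p = 0.239). In LCM20 the 3 probe sets of Col4a1 and Col4a2 thus had changes between -0.46 and -0.44, none past the test. Some alternatives did call Col4a2 and the dimmer Col4a1 probe set. None of the 25 called the brighter Col4a1 probe set in LCM20 against sieved (adjusted p from 0.0561 to 0.267). Col4a2 was called in LCM800 without LCM800 replicates 4 and 5 (0.74, adjusted p = 0.0373, with 0.0373 to 0.952 over all 25 alternatives) and in LCM20 with array weights (adjusted p = 0.0351, with 0.0351 to 0.606 over all). The dimmer Col4a1 probe set was called in LCM20 after quantile normalization and without LCM20 replicate 2 (adjusted p from 0.0479 to 0.169 over its alternatives).

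Col4a4 and Col4a5 encode chains of a collagen IV trimer that is found in the mature glomerular basement membrane, among other places, and is affected in Alport syndrome. Col4a4 was dim and read 249, 261, 190.2 and 135 on the sieved arrays, 262, 227, 176, 169 and 109 on the LCM800 arrays and 163, 259.6, 110.0 and 210.2 on the LCM20 arrays. The groups overlapped, with changes of -0.12 ± 0.24 and -0.14 ± 0.26 (adjusted p = 0.705 and 0.684). Col4a5 read 2975, 2526, 3748 and 2630.0 on the sieved arrays, 1169, 1668, 1412, 4578 and 4548 on the LCM800 arrays and 3535, 4771, 2159.8 and 3515 on the LCM20 arrays. LCM800 replicates 1, 2 and 3 were below every sieved array and replicates 4 and 5 above every one, so that the change of -0.37 ± 0.38 (adjusted p = 0.433) is a mean of unlike arrays. It was -1.03 without LCM800 replicates 4 and 5 (adjusted p = 0.00404) and 0.63 without replicates 1, 2 and 3 (adjusted p = 0.0994), within 0.00404 to 0.771 over its alternatives. In LCM20 the Col4a5 change was 0.19 ± 0.40 (adjusted p = 0.716).

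Laminin had 9 tested probe sets of 8 genes, of which 4 rose and 1 fell in LCM800 (median 0.37) and 3 rose and 1 fell in LCM20 (median 0.26). That is 55.6% and 44.4% called, near the backgrounds of 51.9% and 45.3% of all probe sets. Lamb2, the beta 2 chain of mature glomerular laminin, read 1413, 1216, 2246 and 1683 on the sieved arrays, 11873, 11825, 11486, 5463 and 5306 on the LCM800 arrays and 7577, 8795, 5572 and 8152 on the LCM20 arrays. Every microdissected array lay above every sieved array, and LCM800 replicates 1, 2 and 3 lay above the other microdissected arrays. The mean signal was 5.61 times the sieved mean in LCM800 and 4.59 times in LCM20. Lamb2 rose by 2.38 ± 0.30 in LCM800 (limma, n = 5 and 4; adjusted p = 1.36e-05) and by 2.17 ± 0.32 in LCM20 (limma, n = 4 and 4; adjusted p = 6.62e-05), and both calls held under every alternative run. Lamb1, the beta 1 chain that Lamb2 replaces as the glomerulus matures, read 947, 782, 751 and 1022 on the sieved arrays, 1287, 1234, 1007, 732 and 851 on the LCM800 arrays and 1224, 498, 529 and 618 on the LCM20 arrays. Its groups overlapped and it was not called, at 0.19 ± 0.25 in LCM800 (adjusted p = 0.543) and -0.34 ± 0.27 in LCM20 (adjusted p = 0.309). Lama5, the alpha 5 chain, read 1286, 1546, 989.5 and 1375 on the sieved arrays, 1225, 1512, 1815, 1118 and 833 on the LCM800 arrays and 1119, 1602, 1329 and 1450.3 on the LCM20 arrays. It also overlapped in all groups, with changes of -0.03 ± 0.23 and 0.08 ± 0.24 (adjusted p = 0.931 and 0.801). The second Lama5 probe set (1377428_at) was too dim to test, at 53 to 98.1 on the sieved and 38.7 to 159.9 on the LCM800 arrays.

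The 2 probe sets of Lamc1, the gamma 1 chain shared by most laminins, moved in opposite directions. The brighter (1371322_at) read 1068, 984, 1422 and 940.3 on the sieved arrays, 1881, 1525, 1944, 4096 and 5577 on the LCM800 arrays and 1677, 1742, 3164 and 2787 on the LCM20 arrays. Every microdissected array was above every sieved array, and it rose by 1.23 ± 0.35 in LCM800 (adjusted p = 0.00768) and 1.01 ± 0.37 in LCM20 (adjusted p = 0.034). The LCM800 rise was 2.07 without LCM800 replicates 1, 2 and 3 and 0.67 without replicates 4 and 5. Lamc1 lost its LCM20 call without sieved replicate 1, 2 or 4 or LCM20 replicate 3 or 4, with changes of 0.85 to 1.0 (adjusted p from 0.0677 to 0.1), and over all 25 alternatives the adjusted p ran from 0.00226 to 0.1. The dimmer Lamc1 probe set (1370993_at) read 434, 439, 662 and 333 on the sieved arrays, 405, 198, 222, 182 and 201 on the LCM800 arrays and 171, 169.8, 268 and 149 on the LCM20 arrays. It fell by 0.80 ± 0.23 in LCM800 (adjusted p = 0.00967), where replicate 1 reached the sieved range, and by 1.05 ± 0.25 in LCM20 (adjusted p = 0.00299), where the ranges were apart.

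Lama4, an alpha chain of vascular basement membranes, read 82.9, 96.9, 325 and 116 on the sieved arrays, 667, 1018, 524, 229 and 198 on the LCM800 arrays and 198, 485, 446 and 412 on the LCM20 arrays. Sieved replicate 3 was the highest sieved array and overlapped both microdissected groups. Lama4 rose by 1.34 ± 0.40 in LCM800 (adjusted p = 0.0108) and 1.09 ± 0.42 in LCM20 (adjusted p = 0.0447). The LCM800 call ended without LCM800 replicates 1, 2 and 3, with a change of 0.46 (adjusted p = 0.342), and over all 24 alternatives the adjusted p ran from 6.69e-06 to 0.342. Lama4 lost its LCM20 call without sieved replicate 1, 2 or 4, LCM800 replicate 3 or LCM20 replicate 2, 3 or 4, after quantile normalization, with 4 times the pseudocount and without the filter, with changes of 0.65 to 1.09 (adjusted p from 0.0533 to 0.118), and over all 24 alternatives the adjusted p ran from 0.00122 to 0.118. Lama2 (1390404_at), an alpha chain found in muscle and in mesangial matrix, rose in LCM800 by 0.84 ± 0.26 (adjusted p = 0.0139) with 118 to 185 on the sieved and 173 to 471 on the LCM800 arrays, and its LCM20 change of 0.26 ± 0.28 was not called (adjusted p = 0.461). The LCM800 call of Lama2 ended without LCM800 replicates 4 and 5, with a change of 0.71 (adjusted p = 0.054), and over all 24 alternatives the adjusted p ran from 0.00357 to 0.054. Lama1 and Lama3 were not called, with changes from -0.28 to 0.37. Beside these vascular and mesangial chains, the summed signal of 6 endothelial markers was 4668 to 14606 on the sieved (median 5718), 12677 to 16079 on the LCM800 (median 15371) and 18843 to 25476 on the LCM20 arrays (median 19230), so that most sieved arrays were far below the microdissected ones. That of 6 mesangial markers was 714 to 2804 (median 1111), 1587 to 3228 (median 2568) and 1085 to 2182 (median 1595). Of the 6 endothelial markers, 3 rose and 1 fell in LCM800 and 4 rose and 1 fell in LCM20. Of the 6 mesangial markers, 3 rose in LCM800 and 1 in LCM20, and none fell. No marker of either list was at 0, and their part in the laminin changes was not tested. In such bulk samples fewer cells of a type and less RNA per cell cannot be told apart.

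Nid1, which encodes the nidogen that links laminin to type IV collagen, was lower in microdissected glomeruli. Its brighter probe set (1371518_at) read 2297, 1881, 1427 and 1869.7 on the sieved arrays, 1154, 1016, 879, 927 and 628 on the LCM800 arrays and 821, 437, 919.7 and 607 on the LCM20 arrays. Every microdissected array was below every sieved array, with a fall of 0.98 ± 0.24 in LCM800 (adjusted p = 0.00312) and 1.37 ± 0.25 in LCM20 (adjusted p = 4.54e-04), calls that held under every alternative run. The dimmer Nid1 probe set (1371032_at) read 341, 388, 290.3 and 279 on the sieved arrays, 71, 169, 121, 236 and 151 on the LCM800 arrays and 284, 106, 251 and 253 on the LCM20 arrays. It fell by 0.90 ± 0.25 in LCM800 (adjusted p = 0.008), but its LCM20 change of -0.48 ± 0.27 was not called (adjusted p = 0.158), with LCM20 replicate 2 lowest and the other 3 LCM20 arrays at 251 to 284. The LCM800 call of this probe set ended without LCM800 replicates 1, 2 and 3, with a change of -0.60 (adjusted p = 0.109), and over all 24 alternatives the adjusted p ran from 1.52e-04 to 0.109. Nid2, the second nidogen, read 1598, 1649.6, 1783 and 1756 on the sieved arrays, 971, 1217, 1409, 2168 and 1828 on the LCM800 arrays and 1658, 2518, 1806 and 1994 on the LCM20 arrays. It overlapped in all groups, with changes of -0.21 ± 0.23 and 0.21 ± 0.24 (adjusted p = 0.471 and 0.504).

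The proteoglycan genes were not called. Agrn, which encodes agrin, the main heparan sulfate proteoglycan of the glomerular basement membrane, read 1757, 1738, 2234 and 2125 on the sieved arrays, 1699, 1786, 2027, 2371 and 1213 on the LCM800 arrays and 2322, 2903, 1921 and 2761 on the LCM20 arrays. Its changes were -0.13 ± 0.22 in LCM800 (adjusted p = 0.64) and 0.32 ± 0.23 in LCM20 (adjusted p = 0.279). Hspg2, which encodes perlecan, read 425, 344, 219 and 284 on the sieved arrays, 428, 476, 303, 271 and 373 on the LCM800 arrays and 311, 282, 353 and 212 on the LCM20 arrays. It too overlapped in every pair of groups, with changes of 0.19 ± 0.21 and -0.10 ± 0.22 (adjusted p = 0.464 and 0.741). Of the collagens with endostatin-like ends, Col15a1 was not called, with changes of 0.48 ± 0.24 and 0.52 ± 0.25 (adjusted p = 0.104 and 0.105). Col18a1 fell by 0.65 ± 0.23 in LCM800 on 1 probe set (1388143_at, adjusted p = 0.0274), with 607 to 985 on the sieved and 345 to 780.4 on the LCM800 arrays. The call ended without sieved replicate 1 or 2 or LCM800 replicate 2 or 4 and without LCM800 replicates 4 and 5, with changes of -0.59 to -0.49 (adjusted p from 0.0639 to 0.108), and over all 25 alternatives the adjusted p ran from 8.91e-04 to 0.108. The other Col18a1 probe set (1388459_at) was not called, with a change of -0.51 ± 0.41 (adjusted p = 0.315), and in LCM20 neither was.

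**Figure D2:**
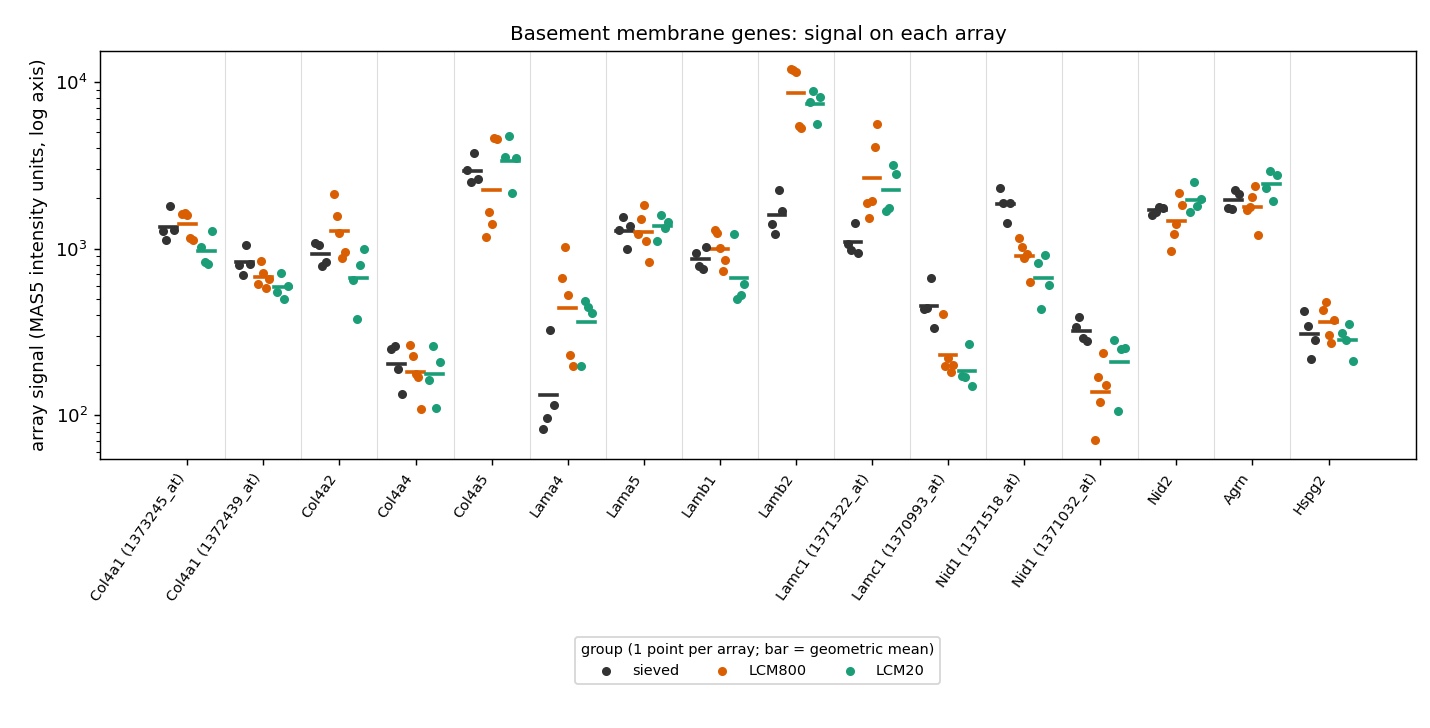
Signal of basement membrane probe sets on each array (y axis, MAS5 intensity units, log axis), with 1 point per array for the 4 sieved, 5 LCM800 and 4 LCM20 arrays and a bar at the geometric mean. The microdissected points of Lamb2 lie wholly above the sieved points, those of Nid1 (1371518_at) wholly below, and the LCM800 points of Col4a5 and Lamb2 split into 3 and 2 arrays.

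Interstitial matrix genes were called about as often as all probe sets, and among them Col5a2 had the largest collagen rise. Of 17 tested probe sets, 6 rose and 3 fell in LCM800 (median 0.41) and 5 rose and 2 fell in LCM20 (median 0.22). That is 52.9% and 41.2% called, near the backgrounds of 51.9% and 45.3%. Of the 8 probe sets of fibrillar collagens I, III and V, 5 rose and 1 fell in LCM800 and 3 rose and 1 fell in LCM20. That is 62.5% and 37.5% higher, beside 31.8% and 26.2% of all probe sets, and 12.5% lower in each, beside 20.1% and 19.2%. These 8 probe sets cover only 5 genes. Both Col5a2 probe sets count among the rises, and Col1a2 counts in both directions, so the calls are not separate genes. Col5a2, a chain of the type V collagen that nucleates type I fibrils, read 221, 188, 421 and 340.4 on the sieved arrays, 1296, 1419, 1512, 1174 and 1513 on the LCM800 arrays and 908, 1807, 1221 and 1056 on the LCM20 arrays on its brighter probe set (1373463_at). All microdissected arrays were above all sieved arrays, 4.73 times the sieved mean in LCM800 and 4.27 times in LCM20. It rose by 2.06 ± 0.24 in LCM800 (limma, n = 5 and 4; adjusted p = 6.45e-06) and 1.88 ± 0.25 in LCM20 (limma, n = 4 and 4; adjusted p = 3.05e-05). The dimmer Col5a2 probe set (1370895_at) read 235, 165, 481 and 326 on the sieved arrays, 425, 611, 625, 829 and 1341 on the LCM800 arrays and 824, 1547, 811 and 817 on the LCM20 arrays. It rose by 1.16 ± 0.31 (adjusted p = 0.00596), with LCM800 replicate 1 within the sieved range, and by 1.56 ± 0.33 in LCM20 (adjusted p = 0.00137), and all 4 Col5a2 calls held under every alternative run.

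Col5a1, the alpha 1 chain of type V collagen, rose on its dimmer probe set (1369955_at) in LCM800 by 0.91 ± 0.30 (adjusted p = 0.0199), with 109 to 201 on the sieved and 128 to 580.0 on the LCM800 arrays, and was not called in LCM20 (0.51 ± 0.32, adjusted p = 0.206). The call ended without sieved replicate 3 or LCM800 replicate 1 and without LCM800 replicates 1, 2 and 3, with changes of 0.40 to 0.84 (adjusted p from 0.0509 to 0.347), and over all 24 alternatives the adjusted p ran from 0.00119 to 0.347. Its brighter probe set (1376099_at) had changes of 0.61 ± 0.30 and 0.07 ± 0.32, not called (adjusted p = 0.0998 and 0.872). Col1a1, the alpha 1 chain of type I collagen, read 201, 141, 191 and 223 on the sieved arrays, 418, 320.5, 334, 354 and 354 on the LCM800 arrays and 334, 237, 379 and 211 on the LCM20 arrays. The LCM800 arrays were all above the sieved arrays and the LCM20 arrays overlapped them. Col1a1 rose by 0.74 ± 0.19 in LCM800 (adjusted p = 0.00432), and its LCM20 change of 0.47 ± 0.20 was not called (adjusted p = 0.0659). A second Col1a1 probe set (1388116_at) was too dim to test and ran the other way in level, at 35.8 to 138 on the sieved and 24.5 to 45.4 on the LCM800 arrays.

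Col1a2, the alpha 2 chain of type I collagen, was called in opposite directions by its probe sets. The brighter (1387854_at) read 303, 162, 345 and 318 on the sieved arrays, 705, 497, 403, 776 and 753 on the LCM800 arrays and 888, 772, 312 and 450.3 on the LCM20 arrays. It rose by 0.99 ± 0.29 in LCM800 (adjusted p = 0.00895), where all arrays were above the sieved ones, and by 0.89 ± 0.30 in LCM20 (adjusted p = 0.025), where replicate 3 lay within the sieved range. Col1a2 lost its LCM20 call without sieved replicate 2 or LCM20 replicate 1 or 2, with changes of 0.69 to 0.75 (adjusted p from 0.0773 to 0.0927), and over all 25 alternatives the adjusted p ran from 0.00703 to 0.0927. The dimmer Col1a2 probe set (1370155_at) read 187, 219, 233 and 202 on the sieved arrays, 112, 161, 108, 135 and 119 on the LCM800 arrays and 166, 68.8, 68.9 and 113 on the LCM20 arrays. Both microdissected groups lay below the sieved range, with falls of 0.52 ± 0.21 (adjusted p = 0.0424) and 0.74 ± 0.22 (adjusted p = 0.0118). The means of both microdissected groups lay under the filter's limit, so this probe set was tested only because of its sieved levels. The LCM800 fall ended without sieved replicate 1, 2, 3 or 4 or LCM800 replicate 1, 3, 4 or 5, without the pseudocount, with the replicate number as a block, without LCM800 replicates 1, 2 and 3 and without LCM800 replicates 4 and 5, with changes of -0.74 to -0.48 (adjusted p from 0.0542 to 0.124), and over all 24 alternatives the adjusted p ran from 0.00958 to 0.124. Col3a1, the type III collagen chain, read 203, 165, 192 and 339 on the sieved arrays, 318, 176, 178, 216 and 199.9 on the LCM800 arrays and 309, 188, 241 and 129 on the LCM20 arrays. Its changes were -0.02 ± 0.24 and -0.05 ± 0.25, with overlapping groups (adjusted p = 0.942 and 0.891).

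Col14a1, which coats collagen fibrils, rose by 0.82 ± 0.28 in LCM800 (adjusted p = 0.0208) and 0.92 ± 0.29 in LCM20 (adjusted p = 0.0169), with 110.2 to 160.1 on the sieved, 192 to 419.6 on the LCM800 and 147 to 606 on the LCM20 arrays. The LCM800 call ended without sieved replicate 1, with the replicate number as a block and without LCM800 replicates 4 and 5, with changes of 0.67 to 0.82 (adjusted p from 0.0503 to 0.0815), and over all 24 alternatives the adjusted p ran from 0.00398 to 0.0815. Col14a1 lost its LCM20 call without LCM20 replicate 3, with a change of 0.65 (adjusted p = 0.0604), and over all 24 alternatives the adjusted p ran from 0.00178 to 0.0604. The beaded-filament chains Col6a1 and Col6a3 and the fibril-associated Col12a1 were not called in either comparison, with changes from -0.20 to 0.41. Beside these connective tissue collagens, the summed signal of 7 fibroblast and adventitia markers was 1609 to 3834 on the sieved arrays, 1973 to 3550 on the LCM800 arrays and 1211 to 2272 on the LCM20 arrays. Of the 4 fibroblast markers tested, 1 rose and 1 fell in LCM800 and 1 fell in LCM20, where the fall was that of Dcn, which encodes decorin. The means of Lum, Fbln1 and Mfap5 were under the pseudocount in the sieved group, and that of Mfap5 also in LCM20, and the part of such cells in the collagen changes was not tested.

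Fn1, which encodes fibronectin, read 1522, 1866, 1002 and 1450.4 on the sieved arrays, 550.3, 543, 565, 1242 and 1366 on the LCM800 arrays and 1195, 1372, 1162 and 1129 on the LCM20 arrays. LCM800 replicates 1, 2 and 3 were well below every sieved array, and replicates 4 and 5 were within the sieved range. Fn1 fell by 0.81 ± 0.28 in LCM800 (adjusted p = 0.0253) and was not called in LCM20 (-0.23 ± 0.30, adjusted p = 0.56). The LCM800 call ended without sieved replicate 1, 2 or 4 or LCM800 replicate 1, 2 or 3 and without LCM800 replicates 1, 2 and 3, with changes of -0.81 to -0.13 (adjusted p from 0.0542 to 0.699), and over all 25 alternatives the adjusted p ran from 3.49e-05 to 0.699. Without LCM800 replicates 4 and 5 the Fn1 change was -1.27. Fbn1, the microfibril protein fibrillin 1, read 135, 93, 299.6 and 164 on the sieved arrays, 29.5, 274, 166, 246 and 368 on the LCM800 arrays and 487, 451, 253 and 403 on the LCM20 arrays on its brighter probe set (1368829_at). The LCM20 arrays overlapped only sieved replicate 3, and Fbn1 rose by 1.0 ± 0.39 in LCM20 (adjusted p = 0.0459) and had a change of 0.15 ± 0.37 in LCM800 (adjusted p = 0.752). Fbn1 lost its LCM20 call without sieved replicate 1, 2 or 4, LCM800 replicate 3 or LCM20 replicate 1, 2 or 4, after quantile normalization, with equal array medians, without the pseudocount and without the filter, with changes of 0.83 to 1.30 (adjusted p from 0.0547 to 0.131), and over all 24 alternatives the adjusted p ran from 0.00206 to 0.131. The dimmer Fbn1 probe set (1387351_at) read 125, 94.5, 199 and 161 on the sieved arrays, 301, 309.8, 142, 192 and 145 on the LCM800 arrays and 224, 202, 166 and 121 on the LCM20 arrays. It was not called, with changes of 0.41 ± 0.24 and 0.22 ± 0.26.

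Sparc, which encodes osteonectin, a collagen-binding matricellular protein, had the largest fall among the matrix genes that are members, on its dimmer probe set (1367563_at). That probe set read 3576, 2553, 3782 and 1298 on the sieved arrays, 432, 632, 584, 611 and 390.1 on the LCM800 arrays and 913, 597, 539.7 and 1174 on the LCM20 arrays. Every microdissected array was below every sieved array, the LCM800 mean 5.29 times and the LCM20 mean 3.48 times lower. This probe set fell by 2.18 ± 0.30 in LCM800 (limma, n = 5 and 4; adjusted p = 3.48e-05) and 1.67 ± 0.32 in LCM20 (limma, n = 4 and 4; adjusted p = 6.49e-04), under every alternative run. The brighter Sparc probe set (1367562_at) read 3598, 2659.7, 1842 and 774 on the sieved arrays, 1047, 1738, 1363, 1573 and 1414 on the LCM800 arrays and 1955, 1595, 492 and 2813 on the LCM20 arrays. It ranged widely within the sieved and LCM20 groups, overlapped between groups and was not called, with changes of -0.44 ± 0.44 and -0.39 ± 0.46 (adjusted p = 0.413 and 0.508).

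Other collagens, mostly of cartilage and specialised tissues, were dim. Of 14 probe sets, 7 were tested, and 3 rose and none fell in LCM800 (median 0.57), with 1 higher and none lower in LCM20 (median 0.27), that is 42.9% and 14.3% called beside 51.9% and 45.3% of all probe sets. After quantile normalization the LCM20 counts were 2 and 1, beside 2898 and 2129 of all 11106 probe sets. With equal array medians they were 1 and 1, beside 2931 and 2171. Col26a1 read 311, 290.1, 196 and 239.5 on the sieved arrays, 579.7, 397, 325, 616 and 539.9 on the LCM800 arrays and 442, 350.2, 581 and 372 on the LCM20 arrays. All microdissected arrays were above all sieved arrays, with rises of 0.76 ± 0.21 (adjusted p = 0.00759) and 0.62 ± 0.23 (adjusted p = 0.0344). Col26a1 lost its LCM20 call without sieved replicate 3 or 4 or LCM20 replicate 1 or 3 and with the replicate number as a block, with changes of 0.49 to 0.62 (adjusted p from 0.0568 to 0.103), and over all 24 alternatives the adjusted p ran from 0.0187 to 0.103. Col2a1, the main collagen of cartilage, read 155, 122, 138 and 189 on the sieved arrays, 299, 257, 221, 338 and 365 on the LCM800 arrays and 227, 212, 309.7 and 193 on the LCM20 arrays. It rose by 0.73 ± 0.19 in LCM800 (adjusted p = 0.0048), and its LCM20 change of 0.47 ± 0.20 was not called (adjusted p = 0.0679), though the LCM20 arrays also lay above the sieved ones. Col10a1, a collagen of growth plate cartilage, rose by 0.70 ± 0.27 in LCM800 (adjusted p = 0.04) with 70.8 to 112 on the sieved and 75.4 to 323 on the LCM800 arrays. Its sieved mean lay under the filter's limit, so Col10a1 was tested only because of its microdissected levels. The call ended without sieved replicate 1, 2, 3 or 4 or LCM800 replicate 1, 2, 4 or 5, after quantile normalization, with equal array medians, with the replicate number as a block and without LCM800 replicates 4 and 5, with changes of 0.55 to 0.76 (adjusted p from 0.05 to 0.104), and over all 24 alternatives the adjusted p ran from 0.00556 to 0.104. Col8a2, Col9a2, Col11a2 and Col27a1 were not called in either comparison, with changes from -0.76 to 0.57. Col27a1 was near the threshold in LCM20 (-0.76, adjusted p = 0.0516) and was called as lower under 13 of its 24 alternatives (adjusted p from 0.0103 to 0.132). In LCM800, Col9a2 was called under 4 of 24 alternatives, Col11a2 under 3, and Col8a2 and Col27a1 under 1 each.

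Integrin chains moved both ways. Of 7 alpha chain probe sets, 3 rose and 2 fell in each comparison, and of 4 beta chain probe sets 1 rose and 1 fell in LCM800 and 1 rose and 2 fell in LCM20. Over both kinds of chain 63.6% of 11 probe sets were called in LCM800 and 72.7% in LCM20, beside 51.9% and 45.3% of all probe sets, with medians of 0.17 and -0.22. These shares count Itgae and Itgb7, which rose in both comparisons and passed the filter only through the microdissected groups. They also count Itgb1 (1387346_at), which fell in both and had an LCM800 mean under the filter's limit. The shares are therefore a description and no test of integrins as a set. Itga3, the alpha 3 chain by which podocytes bind laminin, read 2697, 2125, 2664 and 1498 on the sieved arrays, 6543, 7556, 5499, 4346 and 3309.7 on the LCM800 arrays and 3897, 2909, 3452 and 5090.0 on the LCM20 arrays. All microdissected arrays were above all sieved arrays, with LCM800 replicates 1, 2 and 3 highest, and the mean signal was 2.43 and 1.71 times the sieved mean. Itga3 rose by 1.23 ± 0.27 in LCM800 (adjusted p = 0.00159) and 0.76 ± 0.29 in LCM20 (adjusted p = 0.0411). Without LCM800 replicates 1, 2 and 3 the LCM800 rise was 0.78. Itga3 lost its LCM20 call without sieved replicate 2 or 4, LCM800 replicate 3 or LCM20 replicate 1, 3 or 4 and without the filter, with changes of 0.59 to 0.80 (adjusted p from 0.0511 to 0.14), and over all 25 alternatives the adjusted p ran from 0.0149 to 0.14. Itga1, the alpha 1 chain of a collagen receptor of mesangial cells, read 598, 509, 1211 and 1039.7 on the sieved arrays, 375, 222, 239, 183 and 215 on the LCM800 arrays and 274, 175, 221 and 164 on the LCM20 arrays. It lay below the sieved range on every microdissected array and fell by 1.48 ± 0.25 in LCM800 (adjusted p = 1.91e-04) and 1.66 ± 0.27 in LCM20 (adjusted p = 1.51e-04), under every alternative run. Podocyte markers, 5 genes, had a summed signal of 15198 to 36231 on the sieved, 28210 to 39378 on the LCM800 and 25018 to 39888 on the LCM20 arrays, with 2 of 5 higher and 2 lower in LCM800 and 2 higher and 1 lower in LCM20. None of the 5 was at 0, and their part in the Itga3 change was not tested.

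Itga6, an alpha chain of laminin receptors, was called in opposite directions by its probe sets. The brighter (1371186_at) read 451, 416, 348 and 541 on the sieved arrays, 299.9, 252, 254, 266 and 217 on the LCM800 arrays and 309, 257, 359.7 and 127 on the LCM20 arrays, and fell by 0.63 ± 0.22 in LCM800 (adjusted p = 0.025) and 0.66 ± 0.23 in LCM20 (adjusted p = 0.0291). LCM20 replicate 3 was the single microdissected array within the sieved range. The LCM800 fall ended without sieved replicate 1 or 4, with the replicate number as a block, without LCM800 replicates 1, 2 and 3 and without LCM800 replicates 4 and 5, with changes of -0.71 to -0.54 (adjusted p from 0.0587 to 0.0848), and over all 24 alternatives the adjusted p ran from 0.00199 to 0.0848. The LCM20 fall ended without sieved replicate 1, 2 or 4 or LCM20 replicate 2 or 4 and with the replicate number as a block, with changes of -0.68 to -0.43 (adjusted p from 0.0506 to 0.0913), and over all 24 alternatives the adjusted p ran from 0.00621 to 0.0913. The dimmer Itga6 probe set (1371185_at) read 182, 203, 157 and 181 on the sieved arrays, 414, 331, 359, 473 and 276 on the LCM800 arrays and 371, 324, 693 and 186 on the LCM20 arrays. It rose by 0.81 ± 0.26 (adjusted p = 0.0148) and 0.79 ± 0.27 (adjusted p = 0.0259), with LCM20 replicate 4 within the sieved range. The LCM800 rise ended without LCM800 replicates 1, 2 and 3, with a change of 0.80 (adjusted p = 0.0743), and over all 24 alternatives the adjusted p ran from 0.00144 to 0.0743. The LCM20 rise ended without sieved replicate 1, 3 or 4 or LCM20 replicate 1 or 3, with changes of 0.51 to 0.79 (adjusted p from 0.0514 to 0.088), and over all 24 alternatives the adjusted p ran from 0.00358 to 0.088.

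Itgae and Itgb7 encode the 2 chains of a receptor of intraepithelial T cells that binds E-cadherin, and Itgb7 also pairs in a receptor of gut-homing lymphocytes. Itgae read 132, 113, 104 and 158 on the sieved arrays, 211, 417, 268, 288 and 274 on the LCM800 arrays and 398, 375, 332 and 309 on the LCM20 arrays. Itgb7 read 110.0, 138, 97.2 and 139 on the sieved arrays, 486, 458, 384, 467 and 311 on the LCM800 arrays and 435, 312, 555 and 416 on the LCM20 arrays. For both, every microdissected array was above every sieved array. Both were tested only because of their microdissected levels, since their sieved means of 126.5 (Itgae) and 121 (Itgb7) lay under the filter's limit of 131, so passing the filter already required higher levels there. Itgae rose by 0.88 ± 0.19 in LCM800 (adjusted p = 0.00127) and 1.13 ± 0.20 in LCM20 (adjusted p = 3.33e-04). Itgb7 rose by 1.38 ± 0.19 (adjusted p = 3.32e-05) and 1.39 ± 0.20 (adjusted p = 6.51e-05), and all 4 calls held under every alternative run. The summed signal of 10 leukocyte markers was 8822 to 12949 on the sieved, 8294 to 10241 on the LCM800 and 7011 to 13211 on the LCM20 arrays. Of the 9 leukocyte markers tested, 5 rose and 1 fell in LCM800 and 4 rose and 1 fell in LCM20. The group mean of the T cell marker Cd3d was under the pseudocount in the sieved group and that of Coro1a in LCM800, and the part of leukocytes in these rises was not tested.

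Itgb1 encodes the beta 1 chain, the partner of the alpha chains Itga1, Itga3 and Itga6. Its brighter probe set (1368819_at) read 4367, 3882, 6350.3 and 4502 on the sieved arrays, 3209.6, 3075, 3409, 3802 and 3736 on the LCM800 arrays and 3904, 6359, 3964 and 5081 on the LCM20 arrays. The LCM800 arrays were all just below the sieved range and the LCM20 arrays overlapped it, and neither change was called (-0.44 ± 0.22, adjusted p = 0.0994, and 0.01 ± 0.23, adjusted p = 0.973). The dimmer probe set (1387346_at) of Itgb1 read 1408, 1376, 2708 and 1182 on the sieved arrays, 25.8, 32.2, 119.8, 248 and 231 on the LCM800 arrays and 185, 348, 20.7 and 534 on the LCM20 arrays. Every microdissected array was far below the sieved range, and LCM800 replicates 1 and 2 and LCM20 replicate 3 were under the pseudocount. It fell by 3.26 ± 0.50 in LCM800 (limma, n = 5 and 4; adjusted p = 7.73e-05) and fell by 2.61 ± 0.53 in LCM20 (limma, n = 4 and 4; adjusted p = 9.32e-04), the largest falls of any member in either comparison, under every alternative run. The LCM800 mean log2 of this probe set lay under the filter's limit, so it was tested because of its levels in the other groups. Itgb4, which pairs with alpha 6 in epithelial anchoring junctions, read 419, 366, 222 and 436 on the sieved arrays, 255, 422, 266, 176 and 192 on the LCM800 arrays and 169, 191, 126 and 116 on the LCM20 arrays. It fell in LCM20 by 0.96 ± 0.25 (adjusted p = 0.00568), with all arrays below the sieved range, and was not called in LCM800 (-0.39 ± 0.24, adjusted p = 0.175).

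Itga2b, the platelet alpha chain, and Itga7 (1370937_a_at), a laminin-binding chain of muscle, were not called, with changes from -0.42 to 0.18. With array weights Itga7 was called lower in LCM20 (adjusted p from 0.0457 to 0.408 over its 25 alternatives). A dim, untested Itga7 probe set (1388240_a_at) read 109 to 165 on the sieved, 11.7 to 140 on the LCM800 and 28.6 to 61.7 on the LCM20 arrays. Another (1371214_at) read 4.28 to 13.4, 8.68 to 70.1 and 6.17 to 18.1, near or under the pseudocount. Of the integrin-related genes, Itgb1bp1, whose product binds the beta 1 tail, read 492, 473, 588 and 494 on the sieved arrays, 255, 239, 287, 423 and 258 on the LCM800 arrays and 284, 560.0, 261 and 376 on the LCM20 arrays. The LCM800 arrays were all below the sieved range, and it fell by 0.71 ± 0.21 in LCM800 (adjusted p = 0.0115) and was not called in LCM20 (-0.45 ± 0.23, adjusted p = 0.113). The call ended without LCM800 replicates 1, 2 and 3, with a change of -0.53 (adjusted p = 0.13), and over all 24 alternatives the adjusted p ran from 6.89e-04 to 0.13. Both Itgb3bp probe sets were not called, with changes from 0.25 to 0.99.

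Dim members were not tested and are described by level. They were 19 probe sets, and Itgad, Itgam, Itgb1bp2, Col5a3, Col6a2, Col7a1, Col8a1, Col9a1, Col11a1 and Col19a1 had no other. Itgam, the alpha chain of a macrophage and neutrophil receptor, read 15.1 to 19.9 on the sieved, 8.45 to 57.5 on the LCM800 and 11.9 to 44.2 on the LCM20 arrays, all under the pseudocount. Itgad, another leukocyte alpha chain, read 13.1 to 33.2 on the sieved, 60.6 to 101 on the LCM800 and 44.5 to 81.4 on the LCM20 arrays, near or under the pseudocount but higher on every microdissected array than on any sieved one. The 2 dim probe sets of Col6a2, a partner chain of Col6a1, differed in order: 1 (1376162_at) read 38.3 to 101 on the sieved and 127 to 259 on the LCM800 arrays, the other (1371369_at) 54.6 to 168 and 25.9 to 51.5. The second Col14a1 probe set (1376170_at) read 39.4 to 103 on the sieved, 158 to 307 on the LCM800 and 59.9 to 184 on the LCM20 arrays, and like the tested one was above the sieved range on every LCM800 array. Col7a1, the collagen of anchoring fibrils, read 57.9 to 107, 89.4 to 269.9 and 78.5 to 207 in the same order, with overlapping groups. The remaining dim probe sets belonged to Lama5, Col1a1, Col12a1, Col2a1, Col5a3, Col8a1, Col9a1, Col11a1, Col19a1, Itga7 and Itgb1bp2.

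**Figure D3:**
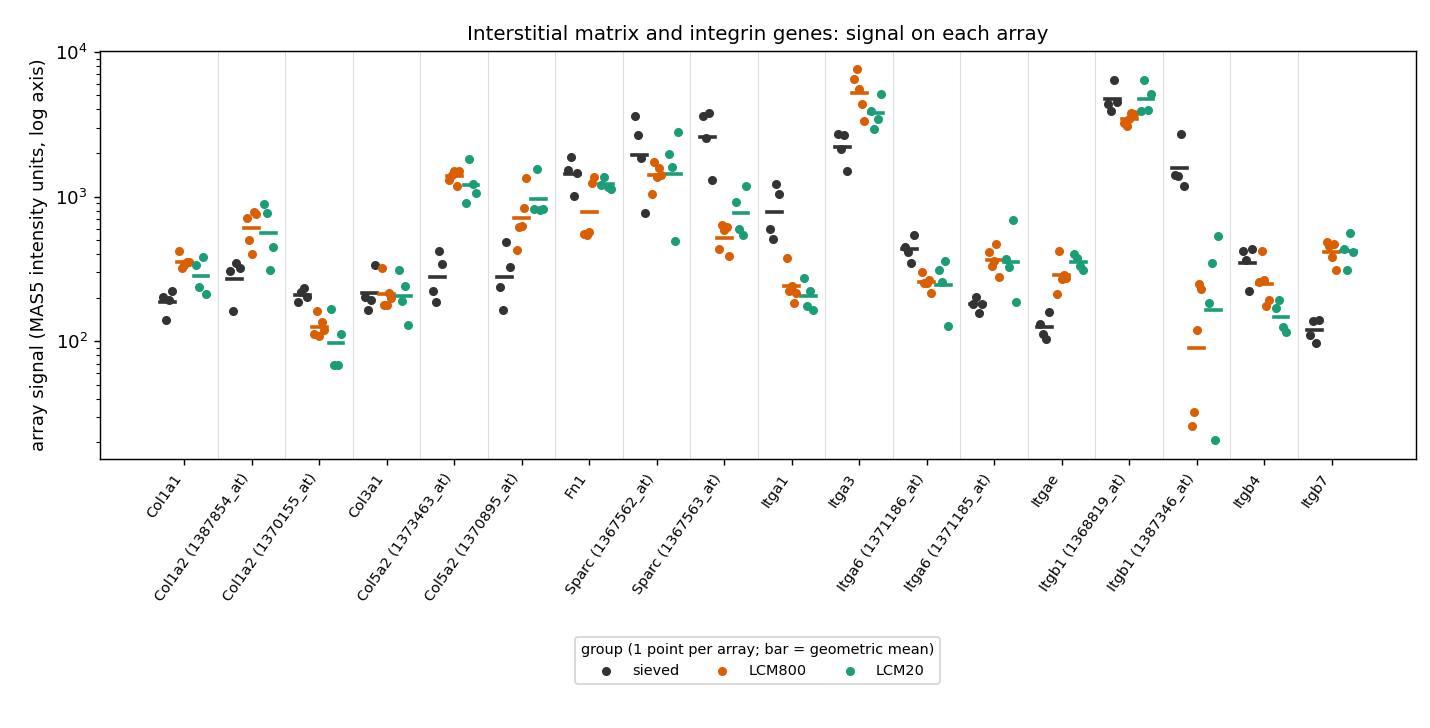
Signal of interstitial matrix and integrin probe sets on each array (y axis, MAS5 intensity units, log axis), with 1 point per array and a bar at the geometric mean for the 4 sieved, 5 LCM800 and 4 LCM20 arrays. Both probe sets of Col5a2 are higher in the microdissected groups, while the pairs of Col1a2, Itga6, Sparc and Itgb1 give different pictures of 1 gene.

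For 12 member genes, 2 probe sets were tested, so each of these genes had a pair of readings. In both comparisons Col1a2, Itga6 and Lamc1 were called in opposite directions by their probe sets. Both probe sets were called in the same direction for Nid1 and Col5a2 in LCM800 and for Col5a2 alone in LCM20. A single probe set was called for Col18a1, Col5a1, Itgb1 and Sparc in LCM800 and for Fbn1, Itgb1, Nid1 and Sparc in LCM20. The changes of the brighter and dimmer Itgb1 probe sets differed by 2.81 and 2.62, those of Lamc1 by 2.03 and 2.06, those of Sparc by 1.74 and 1.28, those of Col1a2 by 1.52 and 1.63, and those of Itga6 by -1.44 and -1.45, in LCM800 and LCM20. The annotation gives both probe sets of Col1a2, Fbn1, Itgb1, Itgb3bp and Sparc the same transcript accession. These differences between probe sets were given after the values were seen and were not tested, and where a gene's probe sets disagree its change in RNA level is uncertain. Beside them stand the control probe sets for the 3′ and 5′ ends of a transcript. The log2 signal of beta-actin was 0.55 ± 0.02 (SD, n = 4) higher at the 3′ end than at the 5′ end on the sieved arrays, 2.77 ± 1.03 (SD, n = 5) on the LCM800 arrays and 1.80 ± 0.45 (SD, n = 4) on the LCM20 arrays. For GAPDH the values were 0.52, 1.22 and 1.14, and for hexokinase 0.73, 0.23 and 0.44. No probe set positions were used here, and the part of this end bias in the members' changes was not tested.

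**Figure D4:**
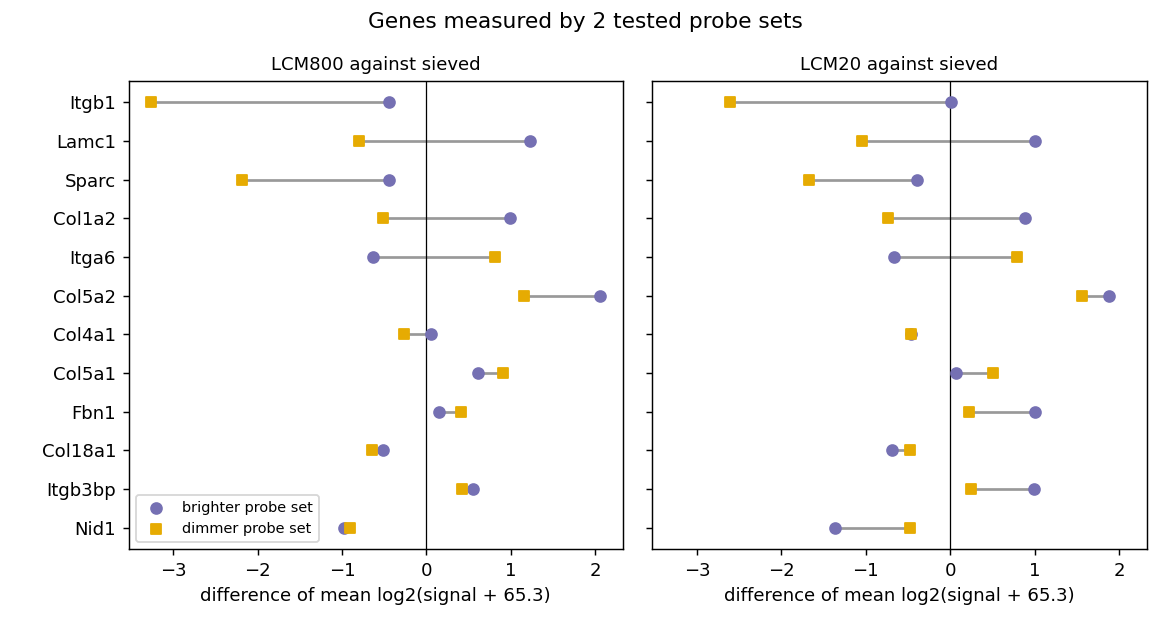
Change against sieved glomeruli of the brighter (circle) and dimmer (square) tested probe set of 12 genes, in LCM800 (left) and LCM20 (right), on an x axis of the difference of mean log2(signal + 65.3). The markers of Lamc1, Col1a2 and Itga6 lie on opposite sides of 0 in both panels, and those of Itgb1 are farthest apart.

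LCM20 against LCM800 compares both microdissected groups, which share the amplification. None of the 60 members was called by limma, against 17 of all 11106 probe sets (0.153%, with 0.072% higher and 0.081% lower). An unadjusted p under 0.05 was found for 8 of the 60 members, beside 1952 of all 11106 probe sets. Sample ranges were apart for 1 member, the brighter Itgb1 probe set, which was higher in LCM20 by 0.45 ± 0.22 (adjusted p = 0.293), where 3.84% of all probe sets were apart, 1.6% higher and 2.24% lower. The count depended on which LCM800 arrays entered. Without LCM800 replicates 4 and 5, 4 members were higher and 8 lower in LCM20, with 23.2% of all probe sets called. The 4 higher were Col4a5, Nid2, Fbn1 (1368829_at) and Fn1, with changes of 1.23, 0.70, 1.22 and 1.05. The 8 lower were Col4a1 (1373245_at), Col4a2, Lama3, Col27a1, Col9a2, Itga3, Itga7 and Itgb4, with changes from -1.19 for Col4a2 to -0.69 for Col4a1. These 12 genes are named after their values were seen. Without LCM800 replicates 1, 2 and 3 no member was called. That fit kept only LCM800 replicates 4 and 5, fewer arrays than the other split, and its share of all probe sets called is not given here. It therefore does not show that these arrays and LCM20 have the same member levels.

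**Figure D5:**
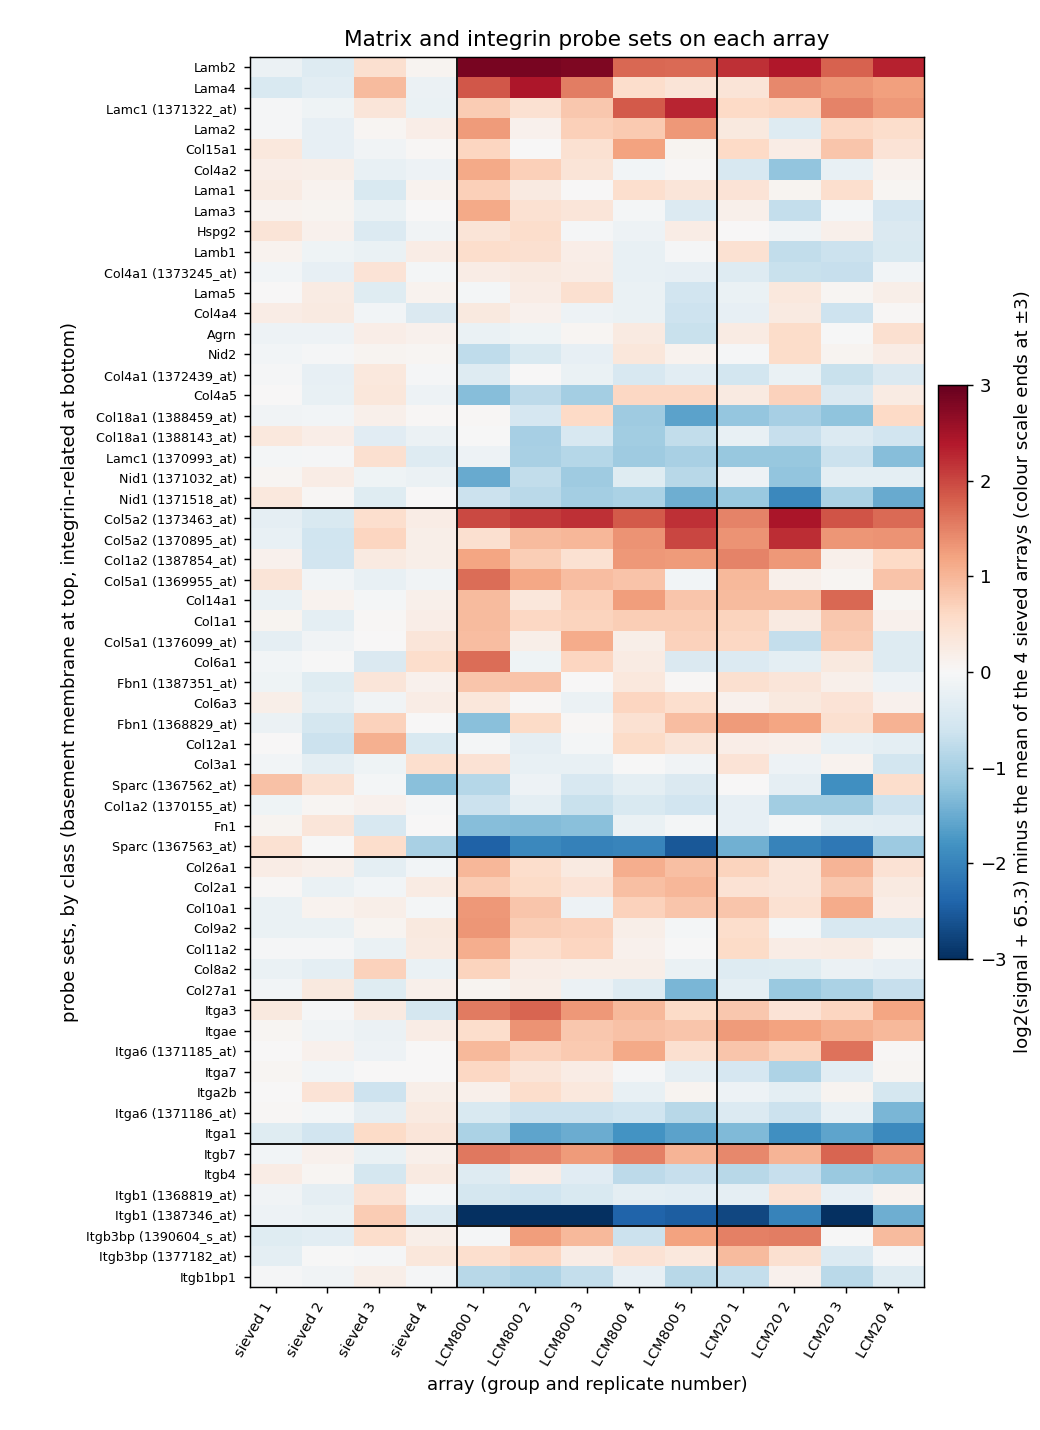
Each tested probe set (rows, by class from basement membrane at the top to integrin-related at the bottom) on each of the 13 arrays (columns), coloured by log2(signal + 65.3) minus the mean of the 4 sieved arrays, with the scale ending at ±3. Lamb2, Col5a2 and Itgb7 are red and Nid1 (1371518_at), Sparc (1367563_at), Itga1 and Itgb1 (1387346_at) blue on all microdissected arrays, and LCM800 replicates 1, 2 and 3 differ in colour from 4 and 5 for Col4a5, Lama4 and Fn1.

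Genes that make, cut and bind the matrix were given from lists, with 1 probe set per gene. Of 13 genes of collagen folding and hydroxylation, 4 rose and 3 fell in LCM800 and 1 rose and 3 fell in LCM20, with medians of 0.34 and 0.31. Serpinh1, the collagen chaperone Hsp47, fell, at -2.67 ± 0.23 (adjusted p = 5.25e-07) and -2.75 ± 0.24 (adjusted p = 9.57e-07), from a sieved mean of 1820 to 232 and 212. P4hb, a subunit of prolyl 4-hydroxylase, fell, at -1.98 ± 0.25 (adjusted p = 1.6e-05) and -1.41 ± 0.27 (adjusted p = 0.000579). Fkbp10 rose by 1.35 ± 0.46 in LCM800 (adjusted p = 0.0223) and was not called in LCM20 (0.31, adjusted p = 0.627). Its sieved mean of 109 lay under the filter's limit of 131, so Fkbp10 was tested only because of its microdissected levels. The lysyl hydroxylase Plod3 rose by 1.23 ± 0.29 in LCM800 (adjusted p = 0.0023) and was not called in LCM20 (0.62, adjusted p = 0.104). Colgalt1, which puts galactose on collagen, rose by 0.70 ± 0.20 (adjusted p = 0.00919) and 1.14 ± 0.21 (adjusted p = 0.000537). Of 6 genes of collagen cleavage and cross-linking, 3 rose in LCM800 and 2 in LCM20, and none fell, with medians of 0.71 and 0.29. Loxl1, a lysyl oxidase, rose by 2.34 ± 0.46 (adjusted p = 0.000622) and 2.52 ± 0.48 (adjusted p = 0.000654), and Pxdn, the peroxidasin that cross-links type IV collagen, by 1.73 ± 0.33 (adjusted p = 0.000503) and 2.37 ± 0.35 (adjusted p = 7.62e-05).

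Of 14 matrix protease and inhibitor genes, 4 rose and 3 fell in LCM800 and 4 rose and 5 fell in LCM20, with medians of 0.03 and -0.01. Mmp9, a gelatinase, rose by 2.49 ± 0.40 (adjusted p = 0.000122) and 2.56 ± 0.42 (adjusted p = 0.000194), from a sieved mean of 55.6, under the pseudocount, to 542 and 576. This sieved mean also lay under the filter's limit of 131, so Mmp9 was tested only because of its microdissected levels. Adamts1, which cuts proteoglycans, rose by 2.08 ± 0.33 (adjusted p = 9.75e-05) and 2.36 ± 0.34 (adjusted p = 6.9e-05). Plau, the urokinase gene, fell, at -3.17 ± 0.37 (adjusted p = 7.28e-06) and -3.25 ± 0.39 (adjusted p = 1.32e-05), and Timp3, a matrix-bound inhibitor of metalloproteinases, at -1.75 ± 0.22 (adjusted p = 1.31e-05) and -2.05 ± 0.23 (adjusted p = 7.78e-06). Of 15 genes of small proteoglycans, elastic and matricellular proteins, 3 rose and 3 fell in LCM800 and 4 rose and 4 fell in LCM20, with medians of 0.47 and -0.12. Ccn2, the connective tissue growth factor gene, rose by 1.5 ± 0.39 (adjusted p = 0.00441) and 2.15 ± 0.41 (adjusted p = 0.000576). Fmod, which encodes fibromodulin, rose by 1.24 ± 0.21 (adjusted p = 0.000159) and 0.91 ± 0.22 (adjusted p = 0.00344). Mgp, an inhibitor of calcification, was not called in LCM800 (0.68, adjusted p = 0.1) and rose by 1.11 ± 0.36 in LCM20 (adjusted p = 0.0188). The osteopontin gene Spp1 fell, at -3.06 ± 0.24 (adjusted p = 2.49e-07) and -2.67 ± 0.26 (adjusted p = 1.63e-06), and so did Dcn, the gene of the small proteoglycan decorin, at -2.35 ± 0.30 (adjusted p = 1.82e-05) and -2.65 ± 0.32 (adjusted p = 1.42e-05).

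Of 29 genes of other matrix receptors and adhesion adaptors, 4 rose and 6 fell in LCM800 and 7 rose and 6 fell in LCM20, with medians of 0.31 and 0.08. The tetraspanin gene Cd9 fell, at -3.97 ± 0.33 (adjusted p = 3.53e-07) and -3.93 ± 0.35 (adjusted p = 9.07e-07), from a sieved mean of 3610 to 162 and 153. The heparan sulfate receptor gene Sdc2 fell, at -2.44 ± 0.33 in LCM800 (adjusted p = 2.40e-05) and -1.73 ± 0.34 in LCM20 (adjusted p = 8.38e-04). Tns1, which links integrins to actin, fell in both too, at -0.94 ± 0.32 (adjusted p = 0.0203) and -1.76 ± 0.33 (adjusted p = 5.64e-04). Actn1, an actin cross-linker, rose by 1.70 ± 0.23 (adjusted p = 2.92e-05) and 1.30 ± 0.25 (adjusted p = 0.000567). Tgfb1i1, a focal adhesion adaptor, rose by 1.51 ± 0.29 in LCM800 (adjusted p = 0.000601) and was not called in LCM20 (0.36, adjusted p = 0.356). Lims1, a partner of integrin-linked kinase, was not called in LCM800 (0.75, adjusted p = 0.231) and rose by 1.45 ± 0.54 in LCM20 (adjusted p = 0.0392). None of the genes in these 5 lists was called in LCM20 against LCM800 by limma, where 1 to 6 genes of each list had an unadjusted p under 0.05, beside 1952 of all 11106 probe sets. For each list the share of genes called is a description beside the backgrounds of 51.9% and 45.3%.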

How the data were processed

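Gene expression was measured on 13 arrays with RNA of rat glomeruli, grouped by their titles (iron, here sieved; LCM 800; LCM 20). The deposited values were linear signal intensities, which the submitters' processing notes credit to MAS5; the mean of each array after 2% of values at each end were left out was 500, so the authors had scaled the arrays and no further normalization was applied. Gene symbols came from the platform annotation (12783 probe sets with 1 symbol, 312 with several, 2771 with none besides 57 controls), and RefSeq changed no member's symbol. Signals were taken as log2(signal + 65.3), where 65.3 is the 20th percentile of all signals. Controls and the lowest 30% by mean log2 were left out, which left 11106 probe sets. The 3 groups were fitted together, with no covariate, by lmFit and trend-moderated eBayes of limma 3.58.1 (R 4.3.3), with Benjamini-Hochberg adjustment at 0.05 over all tested probe sets; the script was tested on simulated data. No detection calls or depths were used, so precision is limited by how many arrays there are. Members, classes, lists, tests and alternatives were chosen with earlier results of these data known, and no set test was run. Member genes given with every array's value were 26 of the basement membrane, matrix and integrin genes, where measured, plus the 2 largest rises and falls past the test per class and comparison; list genes named are the 2 largest past the test in each direction, and other names followed after the values were seen. Alternatives were quantile normalization, equal array medians, no pseudocount or 4 times as large, no filter or the lowest 60% left out, no trend, weighted arrays, fitting only the 2 groups compared, blocking on the replicate number, and leaving out each array, LCM800 replicates 1 to 3, or 4 and 5. Promoter sequence came from RefSeq, assembly GRCr8.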

Additional observations from a re-analysis of the deposited data

Results flagged for a closer look

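In 5 of 180 groups of arrays (60 tested member probe sets in 3 groups, 2.78%), 1 array lay far from the others of its group by Dixon's test, where chance gives about 1 in 20. Col18a1 (1388459_at) read 1519 on LCM20 replicate 4 and 392 to 464 on the other LCM20 arrays, and without that replicate its LCM20 change against sieved was -1.12 (adjusted p = 0.0316; 0.0316 to 0.404 over its alternatives). Lamc1 (1370993_at) read 405 on LCM800 replicate 1 and 182 to 222 on the others. Nid1 (1371032_at) read 106 on LCM20 replicate 2 and 251 to 284 on the others. Col5a2 (1370895_at) read 1547 on LCM20 replicate 2 and 811 to 824 on the others. Col8a2 read 375 on sieved replicate 3, the array that stood apart in the correlations, and 155 to 173 on the other sieved arrays.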

How the results depend on the processing

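Of the 28 members called in LCM800 against sieved, 16 stayed called under every alternative in which they were fitted and 12 lost the call under some, while 14 of the 32 others were called under at least 1. In LCM20 against sieved, 12 of 21 stayed called, 9 did not, and 14 of the 39 others were called under some alternative. No called change turned its sign. When the filter was raised to the lowest 60%, 26 members remained in the fit, and 6 rose and 4 fell in LCM800 and 6 rose and 2 fell in LCM20. With array weights 13 fell in LCM20 against sieved and 1 was lower in LCM20 against LCM800, where leaving out LCM800 replicates 4 and 5 gave 4 higher and 8 lower; the cause was not tested. Leaving out 1 array at a time gave 15 to 18 rises and 7 to 11 falls in LCM800, 7 to 14 rises and 7 to 10 falls in LCM20, and 0 to 0 calls between the microdissected groups. The lowest counts came without sieved replicate 1 for LCM800 falls (7) and without sieved replicate 4 (7) or sieved replicate 2, LCM20 replicate 1 or LCM20 replicate 3 (8 each) for LCM20 rises. No label says that a replicate number marks a rat, and the deviations of arrays with the same number correlated at only -0.24 to 0.23, so the arrays were not treated as paired, which does not show that none share a rat. With the replicate number as a block 16 rose and 9 fell in LCM800, 12 rose and 8 fell in LCM20, and 0 were called between the microdissected groups. The member counts under these alternatives stand here without the share of all probe sets called in the same fit. They do not show whether members shifted more than the rest. For members with signals near the pseudocount the size of a change is understated.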
